A study of Astyanax mexicanus with 96 samples.

Results

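Genes that mark the epicardium, the cell layer covering the outer surface of the heart, were followed through ventricular injury in the Mexican tetra, Astyanax mexicanus. The members were every gene whose symbol in the files was tcf21, wt1, wt1a, wt1b, tbx18 or aldh1a2, ignoring case, which gave 5 of 27420 genes: tcf21, wt1a, wt1b, tbx18 and aldh1a2. Messenger RNA was read in 96 single cardiac ventricles, 48 from surface fish (SF), the river-dwelling population, and 48 from Pachón cavefish (PC), a blind population of the Pachón cave. In cryo-injured fish the tip of the ventricle was touched with a copper probe chilled in liquid nitrogen, and 5 ventricles per population were taken 6 h later (6 hpci, hours post cryo-injury) and at 1, 3, 7, 14 and 30 days (dpci). In sham fish the probe was at room temperature, and 5 ventricles per population were taken at 6 h (hps) and at 1 and 3 days (dps). Another 3 ventricles per population were uninjured. All fish were 2 years old, and sham groups end at 3 days, so ventricles at 7, 14 and 30 dpci were compared with uninjured ventricles.

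The epicardium is a mesothelial sheet that is nearly quiet in the adult heart and is known from zebrafish to turn its developmental program back on after injury, to divide, and to send cells and signals into the wound. TCF21 (a basic helix-loop-helix factor), the WT1 proteins (zinc-finger factors related to the Wilms tumour protein) and TBX18 (a T-box factor) are transcription factors used as epicardial markers, whereas Aldh1a2 (retinaldehyde dehydrogenase) makes retinoic acid, a signal that the epicardium sends to the heart muscle. In zebrafish, aldh1a2 is also switched on in the endocardium after injury, so its level in a whole ventricle is not a measure of the epicardium alone.

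On the surface fish assembly Mexican tetra 2.0, wt1a lies on chromosome 24 (23699768 to 23729985, plus strand, 10 exons) and tbx18 on chromosome 15 (4546260 to 4558160, minus strand, 8 exons). The other members lie on unplaced scaffolds, tcf21 at 28130 to 35637 (minus strand, 2 exons), wt1b at 2264816 to 2309853 (plus strand, 9 exons) and aldh1a2 at 372359 to 423419 (plus strand, 14 exons). No annotated gene overlaps any of them, and each symbol occurs once. Libraries were made from the 3′ ends of transcripts, and for the WT1 pair the authors lengthened the last exon. The custom exon of wt1a runs from 23727008 to 23729929, past a stop codon that ends at 23727129, and that of wt1b from 2305832 to 2309853, past a stop codon that ends at 2305953. How reads that fitted both WT1 genes were counted is not given in the sources used here, so a shift of reads between wt1a and wt1b cannot be told apart from a change in either.

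Depth set how much each gene could show. Totals per library ran from 672292 to 2586602 counts, with a median of 1687721.5. The median library held 81.5 reads of tcf21 (range 27 to 231), 75 of aldh1a2 (10 to 471), 21 of tbx18 (1 to 109), 12 of wt1a (0 to 87) and 11 of wt1b (0 to 56). At those medians, counting alone gives a coefficient of variation of 11.1% for tcf21, 11.5% for aldh1a2, 21.8% for tbx18, 28.9% for wt1a and 30.2% for wt1b. The spread between ventricles of a group was wider, with a median coefficient of variation of 30.0% for tcf21, 34.1% for aldh1a2, 39.5% for tbx18, 39.1% for wt1a and 48.7% for wt1b. These limits cover counting error only. wt1a had 0 reads in 4 surface fish libraries and wt1b in 1, and there a count of 0 still allows between 1.74 and 2.5 CPM. CPM, the unit of every level below, is the count per 1e6 reads of the TMM-scaled library total. In GEO's list replicate 1 at 6 hps and replicate 3 at 3 dps of each population stand among libraries of the other population. Of 34 genes that separated the populations in all other conditions, 32 to 34 in these 4 libraries lay on the side of their label, and the labels were kept.

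The count test was an edgeR quasi-likelihood test in 1 model of all libraries, and a call needed a fold change above 2 and, over the 18763 genes tested, a Benjamini-Hochberg adjusted p under 0.05. As in the study's methods, the model carried a factor of unwanted variation estimated by RUVg from genes of low variability. That factor, a number without unit given to each library, was not independent of the groups. It was lower in cryo-injured than in control ventricles in 12 of 12 comparisons, with ranges that did not overlap in 7, and higher in surface fish than in cavefish in 10 of 10 conditions, without overlap in 9. It stood at -0.0736 ± 0.0200 in surface fish at 7 dpci and at 0.112 ± 0.0453 in uninjured surface fish (SD, n = 5 and 3). Estimates for aldh1a2 and wt1b moved with it, those for tcf21, tbx18 and wt1a little, and the members' changes are therefore given with the factor and, where a call or direction turns on it, without it. The factor was estimated anew in fits with another gene filter, in thinned libraries and where libraries were left out. In those fits an effect of the filter or the libraries cannot be told apart from one of the factor. Adjusted p-values are from the edgeR test unless DESeq2 or a permutation is named.

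**Figure D1:**
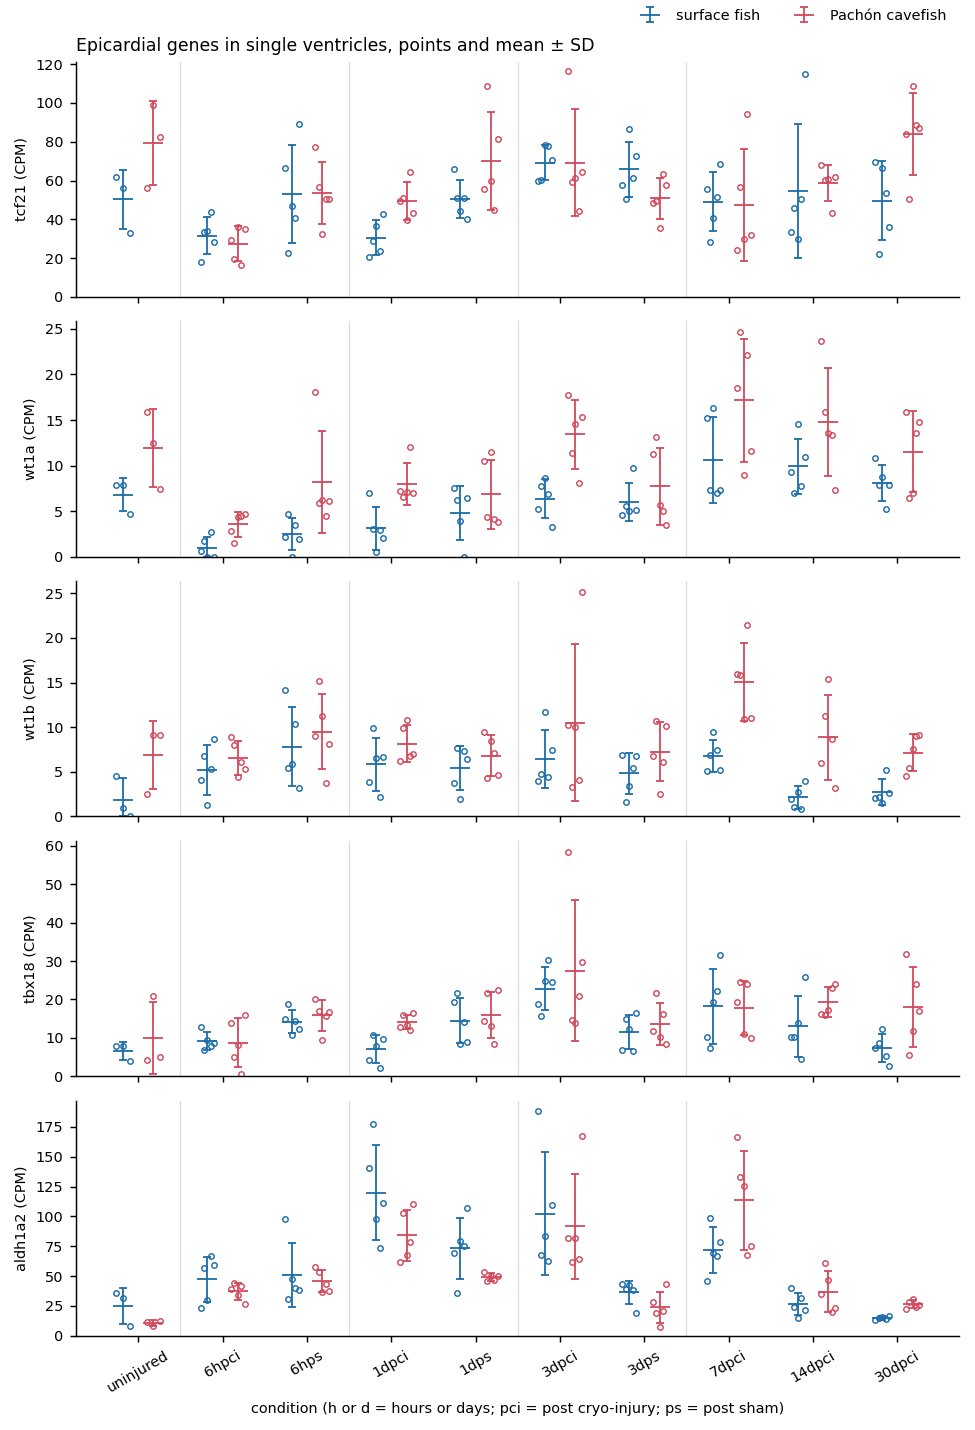
Level of each epicardial gene (CPM, y axis from 0) in every ventricle by condition, surface fish to the left of cavefish; circles are ventricles, bars are mean ± SD. Among cryo-injured groups aldh1a2 is highest from 1 to 7 dpci (119.9 CPM in surface fish at 1 dpci and 114 CPM in cavefish at 7 dpci as group means). Surface fish at 1 dps averaged 73.1 CPM, against 71.9 CPM at 7 dpci. The groups of the transcription factors overlap in most comparisons.

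Among the members, aldh1a2 had the widest span of group means in cavefish. In surface fish only wt1a spanned more (10.8-fold, from a lowest mean of 0.983 CPM at 6 hpci). The means of aldh1a2 spanned 7.97-fold in surface fish, highest at 1 dpci and lowest at 30 dpci, and 10.5-fold in cavefish, highest at 7 dpci and lowest without injury. In the order of aldh1a2 group means, neighbours overlapped in all 9 pairs in surface fish and in 8 of 9 in cavefish. Such neighbours are the most similar groups, so this says little about steps in time. In surface fish the ranges were separate between 6 hpci (23.3 to 66.8 CPM) and 1 dpci (73.6 to 177 CPM). They were also separate between 7 dpci (45.5 to 98.8 CPM) and 14 dpci (15.3 to 39.7 CPM). The same steps were separate in cavefish (26.6 to 44.3, against 61.9 to 110 CPM, and 67.5 to 167, against 20.1 to 61.0 CPM). Other successive cryo-injury times overlapped. The steps with separate ranges were read from CPM and were not among the contrasts tested. The share of all genes that separate at them was not counted. Ranges of the factor were also separate between 6 hpci and 1 dpci in both populations, and overlapped between 7 and 14 dpci. In bulk ventricles, fewer cells of a type and less RNA per cell cannot be told apart, here or in any result below.

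At 3 dpci, aldh1a2 stood above every sham ventricle in both populations. In surface fish it was at 62.4, 67.4, 83.2, 109.8 and 188 CPM at 3 dpci, against 19.3, 38.1, 39.2, 42.5 and 43.1 CPM at 3 dps. In cavefish it was at 61.5, 64.5, 82.0, 82.3 and 168 CPM at 3 dpci, against 7.56, 18.7, 21.1, 28.1 and 43.5 CPM at 3 dps. The injured and sham ranges did not overlap in either population, and 1 cavefish and 1 surface fish ventricle lay well above the other injured ones. The cavefish change was called (log2 fold change 1.53 ± 0.28 SE, adjusted p = 0.00022, and 1.93 ± 0.31 without the factor, adjusted p = 1.1e-05) in a comparison that called 1.89% of all genes with the factor and 3.33% without. It was missed with a second factor (0.84, adjusted p = 0.55), with the filter of 10 counts in 5 libraries (0.73, adjusted p = 0.39) and in a fit of the compared groups alone (1.04, adjusted p = 0.095). The surface fish change was not called with the factor (0.82 ± 0.29, adjusted p = 0.071) and was called without it (1.49 ± 0.30, adjusted p = 0.00016; 4.55% of genes called with the factor and 7.37% without), and with the factor it was called when replicate 2 or 3 was left out of every group (1.57 and 1.25).

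At 7 dpci aldh1a2 also stood above every control ventricle, but these were uninjured and not sham, and the gap between the fits was wider. No sham ventricles were taken at that time or later. An effect of surgery therefore cannot be told apart from one of cryo-injury in changes from 7 dpci on. Cavefish ventricles held 67.5, 75.5, 125, 133 and 167 CPM at 7 dpci, against 8.31, 11.7 and 12.4 CPM uninjured. Surface fish ventricles held 45.5, 66.8, 69.6, 78.9 and 98.8 CPM at 7 dpci, against 7.88, 31.4 and 35.9 CPM uninjured. Every injured ventricle was above every uninjured one in both populations. In cavefish the change was called in either fit (2.03 ± 0.45, adjusted p = 0.0028 with the factor, and 3.39 ± 0.43, adjusted p = 1.8e-09 without it; 2.42% and 11.1% of genes called), but was missed with a second factor (1.38, adjusted p = 0.19) and with the count filter (1.41, adjusted p = 0.098), and was -0.036 ± 1.04 (adjusted p = 1) in a fit of those groups alone. Fits of the compared groups alone kept the factor of the main model. Its ranges in cavefish at 7 dpci and uninjured did not overlap, so such a fit separates group from factor poorly. In surface fish the fitted change was 0.07 ± 0.42 with the factor (adjusted p = 1) and 1.51 ± 0.38 without it (adjusted p = 0.0021; 3.03% and 12.7% of genes called). The ratio of mean CPM, 7 dpci over uninjured, was 2.87 in surface fish and 10.5 in cavefish.

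At the other times aldh1a2 was not called with the factor in either population. At 1 dpci aldh1a2 averaged 119.9 ± 40.0 CPM in surface fish, against 73.1 ± 25.5 CPM at 1 dps, and 84.2 ± 21.5 CPM in cavefish, against 49.2 ± 3.16 CPM at 1 dps (SD, n = 5 each). The cavefish ranges did not overlap and the surface fish ranges did. Neither passed (-0.03 ± 0.28 in surface fish and 0.09 ± 0.29 in cavefish with the factor, 0.71 ± 0.29 and 0.77 ± 0.30 without it), in comparisons that called 1.17% of genes in surface fish and 1.42% in cavefish with the factor, 4.96% and 4.15% without it. At 6 hpci it averaged 47.2 ± 19.2 CPM in surface fish and 37.4 ± 7.04 CPM in cavefish, against 50.9 ± 27.0 and 45.9 ± 9.45 CPM at 6 hps, with fitted changes of -0.47 ± 0.28 and -0.65 ± 0.28 with the factor and -0.11 ± 0.30 and -0.30 ± 0.31 without it, not called (0.65% and 2.17% of genes called with the factor, 1.47% and 3.3% without).

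At 14 dpci, surface fish ventricles ran from 15.3 to 39.7 CPM, overlapping the uninjured range of 7.88 to 35.9 CPM, whereas cavefish ventricles ran from 20.1 to 61.0 CPM, all above uninjured cavefish. The cavefish difference was called only without the factor (1.80 ± 0.43, adjusted p = 0.0079, with 1.79% of genes called, against 0.98 ± 0.41, adjusted p = 0.38 with it, with 0.432% called). At 30 dpci, surface fish ventricles were tightly grouped at 13.5 to 16.9 CPM and cavefish ventricles at 22.7 to 30.9 CPM, the cavefish all above their uninjured group. The surface fish changes were -1.01 ± 0.39 at 14 dpci and -0.97 ± 0.36 at 30 dpci with the factor, and 0.087 ± 0.38 and -0.73 ± 0.40 without it. The cavefish change at 30 dpci was 0.94 ± 0.40 with it and 1.29 ± 0.44 without it. These 3 were not called in either fit, although both surface fish changes were called lower with a second factor (-1.37 and -1.29) and with the count filter (-1.18 and -1.19), in comparisons that called 2.47%, 3.39% and 0.474% of genes with the factor and 7.63%, 3.52% and 0.538% without. The fall between 7 and 30 dpci was called in cavefish in both fits (-1.10 ± 0.34, adjusted p = 0.039, and -2.09 ± 0.32 without the factor; 2.97% and 9.12% of genes called), and was missed with the factor when replicate 1, 4 or 5 was left out of every group (-0.89, -0.80 and -0.96), with a second factor (-0.42), with the count filter (-0.32) and in the groups alone (-0.17). In surface fish it was called without the factor (-2.25 ± 0.33, adjusted p = 1.3e-07, with 8.74% of genes called) and missed with it (-1.04 ± 0.36, adjusted p = 0.13). With the factor it was called when replicate 2 was left out of every group (-1.82, adjusted p = 0.00094). In surface fish no 30 dpci ventricle reached the lowest at 7 dpci.

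**Figure D2:**
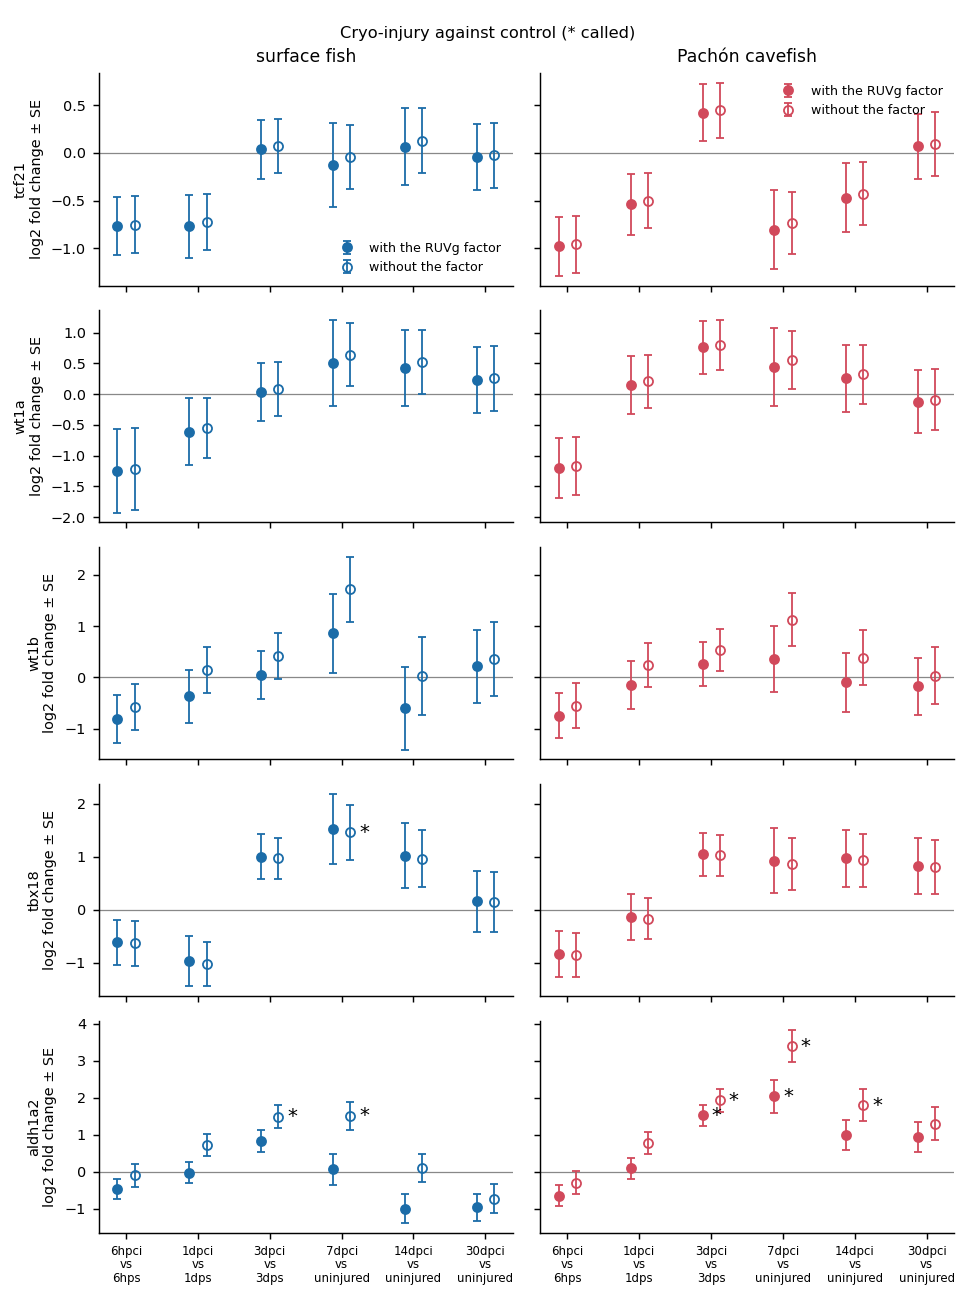
Log2 fold change ± SE of cryo-injured ventricles over their control (sham to 3 days, uninjured after) for each gene, surface fish left and cavefish right; filled points are fitted with the RUVg factor, open points without, and asterisks mark calls. The gap between filled and open points is wide for aldh1a2, up to 1.45 in surface fish at 7 dpci, and narrow for tcf21, tbx18 and wt1a.

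Sham surgery also went with more aldh1a2. At 6 hps cavefish ventricles held 36.9, 37.7, 43.6, 53.7 and 57.8 CPM and at 1 dps 45.7, 46.3, 50.1, 50.4 and 53.3 CPM, against 8.31 to 12.4 CPM uninjured. All 10 early sham ventricles were above all 3 uninjured ones. Both changes were called in either fit (2.91 ± 0.41 and 2.48 ± 0.39 with the factor, 2.08 ± 0.43 and 2.18 ± 0.43 without, in comparisons that called 5.1% and 4.31% of genes with the factor), although the 6 hps call was missed with a second factor (1.78, adjusted p = 0.081). In surface fish the sham ventricles held 30.5, 38.4, 40.2, 47.4 and 97.9 CPM at 6 hps and 35.5, 69.6, 74.9, 79.1 and 107 CPM at 1 dps. The uninjured range of 7.88 to 35.9 CPM overlapped both. At 1 dps the change was called in either fit (1.83 ± 0.35, adjusted p = 5.2e-05, and 1.54 ± 0.38 without the factor, adjusted p = 0.0029; 8.85% of genes called with the factor), and at 6 hps only with the factor (1.73 ± 0.37, adjusted p = 0.00064, against 1.02 ± 0.38, adjusted p = 0.091; 6.74% of genes called), where it was lost without replicate 3 of every group (1.49, adjusted p = 0.054). With a second factor or the count filter neither surface fish call was made (0.73 and 0.49 at 1 dps, 0.67 and 0.36 at 6 hps). At 3 dps no call was made in either population (2.38% and 1.12% of genes called with the factor, 4.16% and 2.13% without), with 36.5 ± 9.81 CPM in surface fish and 23.8 ± 13.3 CPM in cavefish.

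Between populations, the aldh1a2 calls rested on the factor. With it, aldh1a2 was called higher in surface fish in 6 of 10 conditions, uninjured (2.22 ± 0.46), 6 hps (1.04 ± 0.32), 1 dps (1.57 ± 0.32), 3 dps (1.57 ± 0.33), 6 hpci (1.22 ± 0.32) and 1 dpci (1.45 ± 0.31). In that order these comparisons called 5.78%, 6.36%, 7.39%, 6.68%, 6.92% and 7.92% of all genes, and those at 3, 7, 14 and 30 dpci, without an aldh1a2 call, 6.44%, 5.38%, 7.88% and 6.68%. The 3 dpci difference was called without a filter beyond 1 read (1.33), in thinned libraries (1.46) and in the groups alone (1.80). The factor's ranges did not overlap at 3 dpci, so that last fit separates group from factor poorly. Without the factor, none of the 10 was called (fitted changes from -0.82 to 1.21), with the lowest adjusted p at 0.12. With the factor but without replicate 2 of every group, none was called either, and the uninjured difference was 1.48 (adjusted p = 0.16). With a second factor or with the count filter the uninjured difference was still called (1.57 and 1.35), and it was the only one of the 6. In the groups alone the differences at 6 hps, 1 dps, 3 dps and 6 hpci were missed (0.353, 1.385, 1.584 and 0.548). With replicate number as a block the 6 hps difference was missed (0.97). The 6 hps difference was also missed with any 1 of replicates 1 to 4 left out (0.72 to 1.16) and without the 4 libraries of uncommon list position (1.00, adjusted p = 0.088), and the 6 hpci difference without replicate 4 (0.94). The CPM ranges of the populations overlapped in all 6 of those conditions: uninjured surface fish had 7.88, 31.4 and 35.9 CPM and uninjured cavefish 8.31, 11.7 and 12.4 CPM, and at 6 hps surface fish averaged 50.9 ± 27.0 CPM and cavefish 45.9 ± 9.45 CPM. The ranges were separate at 30 dpci, where surface fish were lower (13.5 to 16.9 CPM, against 22.7 to 30.9 CPM in cavefish), and there the fitted difference was 0.31 ± 0.38 with the factor and -0.82 ± 0.36 without it, and was not called in either. At 7 dpci the fitted difference was 0.25 ± 0.30 with the factor and -0.66 ± 0.29 without it.

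The difference between populations in the injury change kept its size without the factor, but not its call. The change in surface fish minus that in cavefish, the interaction, was called at 7 dpci (-1.97 ± 0.50, adjusted p = 0.023) and at 14 dpci (-1.99 ± 0.51, adjusted p = 0.034), where 0.986% and 0.949% of genes were called. At 30 dpci it was -1.91 ± 0.53 (adjusted p = 0.071). It was called under 6 of 15 alternatives. These were a second factor (-2.24, adjusted p = 0.014), the count filter (-2.28, adjusted p = 0.0070) and DESeq2 (-1.96, adjusted p = 0.018), as well as no filter beyond 1 read (-1.93), leaving out the 4 libraries of uncommon list position (-1.92) and the groups alone (-1.81). Without the factor the estimates were of like size (-1.88 ± 0.56, -1.71 ± 0.57 and -2.03 ± 0.59) and none was called (adjusted p = 0.10, 0.16 and 0.12). With the factor, the 7 and 14 dpci calls were also lost without replicate 1 (-1.67 and -2.01), replicate 2 (-1.79 and -1.28) or replicate 3 (-2.10 and -1.86) of every group. These contrasts share the uninjured groups of 3 ventricles, which averaged 25.1 ± 15.1 CPM in surface fish and 10.8 ± 2.19 CPM in cavefish.

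**Figure D3:**
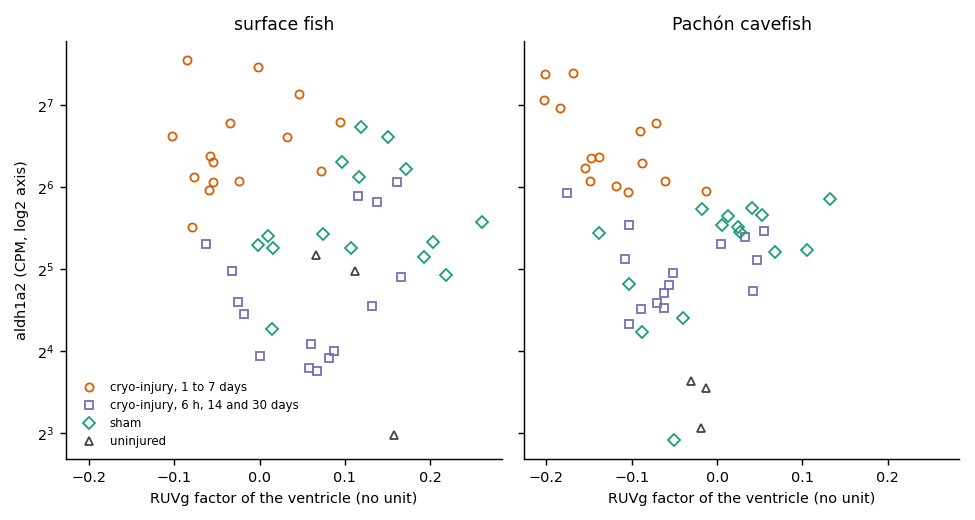
aldh1a2 (CPM, log2 axis) against the RUVg factor of each of the 96 ventricles, surface fish left and cavefish right, by treatment. The group means of the factor were lowest at 3 and 7 dpci (-0.0520 and -0.0736 in surface fish, -0.135 and -0.178 in cavefish), whereas surface fish at 1 dpci, with the highest aldh1a2 mean, had 0.0486, above the 0.0223 of 3 dps.

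Markers of other cell types also changed over the same days. The summed level of 6 cardiomyocyte markers was 11462 to 21694 CPM in surface fish at 7 dpci, against 26848 to 32073 CPM uninjured, and 9140 to 19855 CPM in cavefish at 7 dpci, against 35256 to 36218 CPM uninjured. That of 21 fibroblast and mural cell markers was 4045 to 6528 CPM in surface fish and 4848 to 7105 CPM in cavefish at 7 dpci, against 869 to 1830 CPM and 1177 to 1538 CPM uninjured. The sum of 24 macrophage and neutrophil markers was 1077 to 1907 CPM in surface fish and 1310 to 2349 CPM in cavefish at 7 dpci, against 725 to 1012 CPM and 645 to 1382 CPM uninjured. Few genes weigh most in such sums. Median counts were 896.5 for cd74a, 188.5 for c1qc and 3 for lyz in this list. Among cardiomyocyte markers they were 22670.5 for myl7 and 16514 for cmlc1, whereas tnnc1a had 0 reads in 89 of 96 libraries. At 1 dpci in surface fish, at the highest aldh1a2 mean, the cardiomyocyte sum was 8946 to 23484 CPM, against 25095 to 40081 CPM at 1 dps. The fibroblast sum there was 701 to 1105 CPM, against 1130 to 1558 CPM at 1 dps. In cavefish the fibroblast sum overlapped between 1 dpci (1216 to 1711 CPM) and 1 dps (1107 to 1737 CPM). At 14 dpci the surface fish fibroblast sum still stood at 2758 to 5673 CPM, with aldh1a2 at 15.3 to 39.7 CPM. In the sham groups with called aldh1a2 changes, the cardiomyocyte sum was 24445 to 44764 CPM at 6 hps and 25095 to 40081 CPM at 1 dps in surface fish, and 26853 to 31996 CPM at 6 hps and 34224 to 45696 CPM at 1 dps in cavefish. The sum of 10 endothelial markers in surface fish was 225 to 356 CPM at 1 dpci, against 198 to 488 CPM at 1 dps. It was 196 to 323 CPM at 3 dpci, against 301 to 441 CPM at 3 dps. At 7 dpci it was 304 to 498 CPM, against 222 to 360 CPM uninjured. Endothelial sums of injured cavefish, whose aldh1a2 changes at 3 and 7 dpci were called, are not given here. The part of these cell types in the aldh1a2 result was not tested. Liver transcripts reached 1272 CPM in 1 surface fish ventricle at 3 dpci, where aldh1a2 was 83.2 CPM, the median of its group. The sum of 5 atrium and outflow tract markers was uneven, from 71.0 to 344 CPM in uninjured cavefish (median 72.7 CPM). In surface fish at 6 hps it ran from 28.9 to 345 CPM. The skeletal muscle gene mylpfb ran from 0 to 3384 reads per library, with a median of 2. The part of such tissue in the members' levels was not tested.

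tbx18 had its highest group mean at 3 dpci in both populations, without a call in either fit. Surface fish held 15.6, 18.9, 24.5, 24.9 and 30.2 CPM at 3 dpci, against 6.66, 6.93, 12.3, 14.9 and 16.5 CPM at 3 dps. Cavefish held 13.8, 14.6, 20.8, 29.7 and 58.5 CPM at 3 dpci, against 8.35, 10.1, 11.8, 16.1 and 21.8 CPM at 3 dps. The ranges overlapped in both populations, narrowly so in surface fish. The fitted changes were 1.00 ± 0.42 in surface fish (adjusted p = 0.15) and 1.05 ± 0.40 in cavefish (adjusted p = 0.15), and 0.97 ± 0.39 and 1.02 ± 0.38 without the factor, also not called. The cavefish change was called in thinned libraries (1.53, adjusted p = 0.011) and without replicate 2 of every group (1.41, adjusted p = 0.031). At 7 dpci surface fish averaged 18.1 ± 9.79 CPM, against 6.54 ± 2.26 CPM uninjured. This difference was called without the factor and missed with it (1.46 ± 0.52, adjusted p = 0.041, against 1.53 ± 0.66, adjusted p = 0.22), as was the lower level at 30 dpci, 7.23 ± 3.65 CPM, against 7 dpci (-1.32 ± 0.42, adjusted p = 0.024, against -1.37 ± 0.54, adjusted p = 0.19). The 30 dpci difference was called with the factor without replicate 2 of every group (-1.64, adjusted p = 0.038) and in the groups alone (-7.25, adjusted p = 0.018). The ratio of mean CPM, 30 over 7 dpci, was 0.398, far from that last estimate, and the factor's ranges in those groups did not overlap.

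tbx18 also stood higher after sham surgery in surface fish. It ran from 10.8 to 18.7 CPM at 6 hps and from 8.36 to 21.6 CPM at 1 dps, against 3.94 to 7.86 CPM uninjured, with no overlap. The changes, 1.08 ± 0.57 and 1.12 ± 0.54 with the factor and 1.11 ± 0.53 and 1.13 ± 0.53 without it, were not called. In cavefish 1 uninjured ventricle at 20.8 CPM lay above the others at 4.18 and 4.96 CPM, and sham and uninjured ranges overlapped. Between populations tbx18 was not called in any condition in either fit, though at 1 dpci surface fish (2.16 to 10.7 CPM) lay below cavefish (12 to 16.4 CPM) without overlap (-1.03 ± 0.48, adjusted p = 0.18). That difference was called in thinned libraries (-1.67, adjusted p = 0.048), and the one at 30 dpci (-1.32 ± 0.56, adjusted p = 0.15) with the count filter (-1.30, adjusted p = 0.038).

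tcf21, the member with the narrowest span of group means in surface fish but not in cavefish, was called in none of the 38 comparisons in either fit. Its group means spanned 2.27-fold in surface fish and 3.06-fold in cavefish, and in both the lowest means fell within the first day after cryo-injury. At 6 hpci surface fish held 18.1, 28.4, 33.6, 33.8 and 44.0 CPM, against 22.7, 40.8, 46.6, 66.7 and 88.9 CPM at 6 hps. Cavefish held 16.5, 19.6, 29.5, 35.2 and 36.1 CPM at 6 hpci, against 32.5, 50.4, 50.5, 56.6 and 77.3 CPM at 6 hps. Of the injured ventricles, 1 in surface fish and 3 in cavefish were below every sham ventricle. The fitted changes were -0.77 ± 0.30 (adjusted p = 0.24) in surface fish and -0.98 ± 0.31 (adjusted p = 0.062) in cavefish. Without the factor the cavefish change was -0.96 ± 0.30 with an adjusted p of 0.045, under 2-fold and therefore not a call. The cavefish change was called without a filter beyond 1 read (-1.03, adjusted p = 0.022) and without replicate 3 of every group (-1.19, adjusted p = 0.038). Other calls of tcf21 were made between populations at 1 dpci in thinned libraries (-1.04) and, without replicate 4 of every group, in cavefish at 7 dpci against 3 dpci (-1.08) and at 30 dpci against 7 dpci (1.43). By 3 dpci tcf21 was at 69.2 ± 9.0 CPM in surface fish and 69.2 ± 27.5 CPM in cavefish, against 65.7 ± 14.2 and 50.8 ± 10.6 CPM at 3 dps.

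wt1a had its lowest level at 6 hpci, as tcf21 did in cavefish. Surface fish held 0, 0, 0.583, 1.68 and 2.65 CPM (0 to 5 reads) at 6 hpci, against 0, 1.92, 2.13, 3.45 and 4.69 CPM (0 to 6 reads) at 6 hps. Cavefish held 1.45, 2.78, 4.38, 4.41 and 4.65 CPM at 6 hpci, against 4.51, 5.84, 6.06, 6.25 and 18.1 CPM at 6 hps. Ranges overlapped in both. The changes of -1.25 ± 0.68 (adjusted p = 0.45) and -1.20 ± 0.49 (adjusted p = 0.19), or -1.22 ± 0.66 and -1.17 ± 0.47 without the factor, were not called. What size of change could be detected at so few reads was not tested. Uninjured surface fish, at 4.73, 7.84 and 7.86 CPM, were above all 5 surface fish ventricles at 6 hps (-1.37 ± 0.63, adjusted p = 0.18). The highest group means came at 7 dpci, with 10.6 ± 4.71 CPM in surface fish and 17.2 ± 6.72 CPM in cavefish, against 6.81 ± 1.80 and 11.9 ± 4.25 CPM uninjured, and were not called. Surface fish had the lower mean in all 10 conditions, for wt1b as well as for wt1a. How many of all genes did so was not counted. At 6 hps the wt1a difference was called without the factor (-1.68 ± 0.51, adjusted p = 0.023, with 5.61% of genes called) and missed with it (-1.61 ± 0.57, adjusted p = 0.066), where surface fish had 0 to 4.69 CPM and cavefish 4.51 to 18.1 CPM. With the factor it was called with the count filter (-1.67, adjusted p = 0.017) and without replicate 4 of every group (-1.99, adjusted p = 0.024), and also by DESeq2 (-1.62, adjusted p = 0.043). The 1 dpci difference was called with the count filter (-1.26, adjusted p = 0.049).

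wt1b had another order of group means than wt1a in surface fish, highest at 6 hps and lowest without injury. In cavefish both genes were highest at 7 dpci and lowest at 6 hpci. In surface fish wt1b was near its limit without injury (0, 0.982 and 4.57 CPM, or 0, 1 and 7 reads) and held 3.20, 5.47, 5.83, 10.3 and 14.2 CPM at 6 hps. Of the sham ventricles, 4 were above every uninjured one. The change was called with the factor (2.35 ± 0.68, adjusted p = 0.016) and missed without it (1.92 ± 0.65, adjusted p = 0.052), and also with the factor when replicate 2, 3 or 4 was left out of every group (1.82, 1.92 and 1.92), with a second factor (1.37), with the count filter (1.47), without those 4 libraries of uncommon list position (2.01) or in the groups alone (2.54). At 1 dps wt1b was called in surface fish without replicate 1 of every group (3.69). At 7 dpci wt1b stood above every uninjured ventricle in both populations, at 5.06 to 9.45 CPM in surface fish and 10.9 to 21.5 CPM in cavefish, against 0 to 4.57 CPM and 2.51 to 9.14 CPM uninjured, and was not called in either fit (0.86 ± 0.78 and 0.35 ± 0.65 with the factor, 1.72 ± 0.64 and 1.13 ± 0.51 without it).

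The populations differed in wt1b at 14 dpci. Surface fish held 0.816, 1.07, 1.96, 2.77 and 3.97 CPM and cavefish 3.14, 5.93, 8.62, 11.3 and 15.4 CPM. Only the lowest cavefish ventricle fell within the surface fish range. wt1b was lower in surface fish by the call of either fit (-1.64 ± 0.55, adjusted p = 0.038, and -2.09 ± 0.50 without the factor, adjusted p = 0.0021; 7.88% and 6.53% of genes called). With the factor it was missed without replicate 1, 2, 3 or 4 of every group (-1.66, -1.79, -1.56 and -1.61, the lowest adjusted p 0.063) in thinned libraries (-1.60, adjusted p = 0.24), without a filter beyond 1 read (-1.39, adjusted p = 0.17) and in the groups alone (-1.67, adjusted p = 0.37). With the factor the median of all genes stood at 0.13 in this comparison, and changes are read relative to it. At 7 dpci the ranges were apart, with 5.06 to 9.45 CPM in surface fish and 10.9 to 21.5 CPM in cavefish, and the difference was not called (-0.63 ± 0.48, and -1.15 ± 0.40 without the factor, adjusted p = 0.063). With the count filter the differences at 7 and 30 dpci were called (-1.08 and -1.50).

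**Figure D4:**
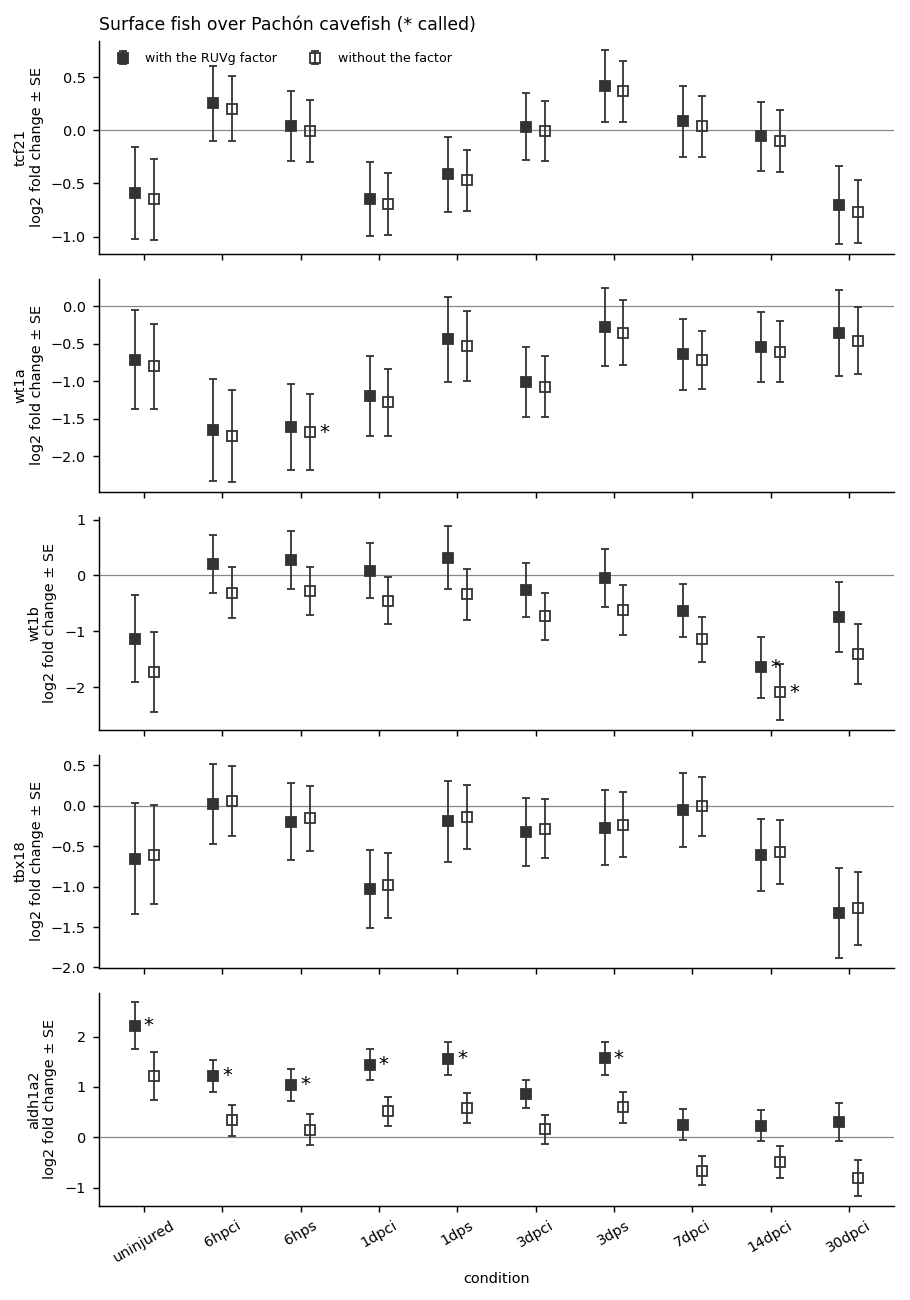
Log2 fold change ± SE of surface fish over cavefish for each gene by condition; filled squares are fitted with the RUVg factor, open squares without, and asterisks mark calls. For aldh1a2 the filled squares stand above the open ones in every condition and 6 of them are called, whereas wt1b at 14 dpci is called in both fits.

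The WT1 genes differed in the order of their group means in surface fish. The log2 ratio of wt1a to wt1b reads (0.5 added to each) was therefore compared per ventricle over 32 comparisons. This test was added after the values were seen. In surface fish the ratio was -1.76 ± 1.49 at 6 hps (n = 5), against 2.31 ± 1.49 without injury (n = 3), with no overlap (exact permutation test, two-sided, p = 0.036, the smallest that 5 against 3 allows, adjusted p = 0.42). At 14 dpci it was 2.23 ± 0.56 in surface fish and 0.79 ± 0.78 in cavefish (exact permutation p = 0.016, adjusted p = 0.42, n = 5 each). Of the 32 comparisons, 0 passed the adjusted threshold. Groups of 3 to 5 ventricles bound the permutation p from below, so no single comparison could pass on its own after adjustment. The count of 0 therefore does not show that the ratio was unchanged.

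Counted together, the members made 2 calls among 60 tests of cryo-injury against control, 5 among 30 of sham against uninjured, 7 among 50 of surface fish against cavefish, 2 among 30 interactions and 1 among 20 of later against earlier days. Over all genes the same sets of contrasts called 2.01%, 4.75%, 6.74%, 0.461% and 2.76% of tests, and the members' shares were 3.33%, 16.7%, 14.0%, 6.67% and 5.0%. Of these 17 calls, 15 were aldh1a2 and 2 wt1b. tcf21, tbx18 and wt1a made 0 calls in the main model, with 18 of their 114 tests at an unadjusted p under 0.05, 1 call by DESeq2, 3 without the factor, 3 with the count filter, 3 in thinned libraries, 1 without a filter beyond 1 read, 1 in the groups alone and 6 over the fits that left out 1 replicate. The share of all genes at that unadjusted p is not given here, nor are the shares called under most of these alternatives. These counts of tcf21, tbx18 and wt1a can therefore not be set against those of genes at large. The groups of a contrast set are shared between contrasts, so the calls are not independent of each other.

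Among ventricles of the same group, tcf21 and tbx18 varied together in cavefish. After group means were removed, Pearson's r of log2(CPM + 1) was 0.61 over 48 cavefish ventricles (p = 5e-05, adjusted p = 0.001, permutation of 100000 within groups, over 20 pairs of members), with Spearman's rho 0.61 (adjusted p = 0.0026). It was 0.59 without the 2 ventricles farthest from the median of tcf21. In surface fish r was 0.34 and rho 0.34 (adjusted permutation p = 0.27 and 0.21), and the difference between populations was not tested. The only other pair that passed was wt1b with aldh1a2 in cavefish (r = 0.51, adjusted permutation p = 0.028), with rho 0.39 short of the threshold (adjusted permutation p = 0.16) and r = 0.42 without the 2 farthest ventricles. With the factor regressed out that pair did not pass (r = 0.39, adjusted permutation p = 0.23). It also did not pass when replicate 1, 2, 3 or 5 was left out of every group (r from 0.32 to 0.58). No other pair passed, and apart from tcf21 with tbx18 their r ran from -0.12 to 0.30.

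**Figure D5:**
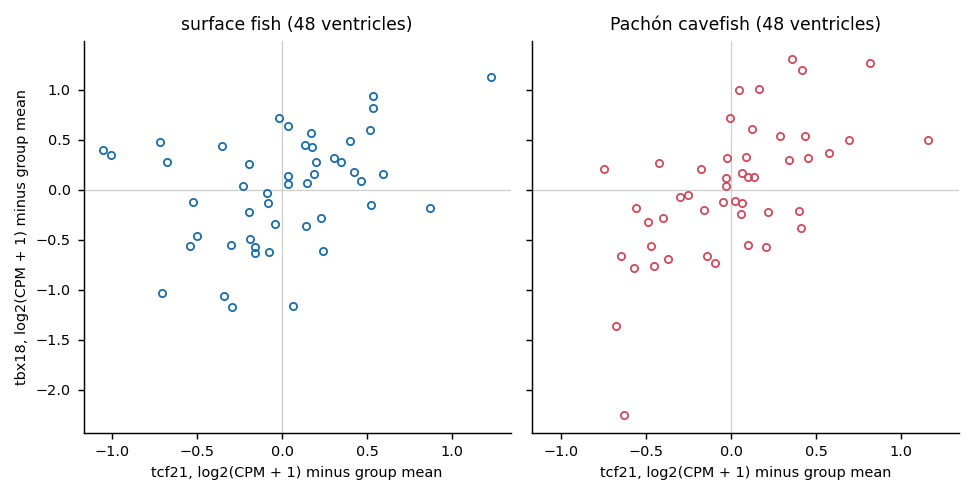
tbx18 against tcf21 in each ventricle, both as log2(CPM + 1) minus the mean of the ventricle's group, surface fish left and cavefish right (48 ventricles each). In cavefish, ventricles high in tcf21 for their group tend to be high in tbx18 (r = 0.61). In surface fish r = 0.34 did not pass (adjusted permutation p = 0.27), and it ran from 0.10 to 0.51 with 1 replicate number left out.

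Across the 20 group means, a description in which all genes share the same libraries, the members were not 1 group. aldh1a2 had r = 0.51 with wt1b and 0.47 with tbx18, and -0.25 with tcf21 and -0.14 with wt1a. tbx18 had r = 0.60 with wt1b and 0.54 with tcf21, and tcf21 had r = 0.58 with wt1a. Among 7933 genes with a symbol and a mean of at least 5 CPM, those most like aldh1a2 were mtdha (r = 0.93), anxa2a (0.91), slc35b1 (0.91), psmd3 (0.91) and krt18a.1 (0.89). anxa2a (annexin A2) and krt18a.1 (a keratin of simple epithelia) are also in the wider epicardial list below. Those most like wt1a were HNRNPUL1 (0.93), erg (0.91), SCARF2 (0.91), si:ch211-166g5.4 (0.90) and aspa (0.90), and for wt1b ppwd1 (0.86), cd81a (0.83), s100a10b (0.82), ZDBF2 (0.82) and alg3 (0.81). tcf21 was closest to RETSAT (0.84), gemin2 (0.83), atg12 (0.80), pigf (0.79) and gramd4b (0.79), and tbx18 to itgb1a (0.75), c6 (0.75), taf9 (0.74), rab7a (0.74) and yipf4 (0.73).

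For the gene lists below, the 7 dpci comparisons called 3.03% of all genes in surface fish and 2.42% in cavefish with the factor, and 12.7% and 11.1% without it. Changes of list genes are given with the factor, and each list gene given with a difference was called in both fits. Of 35 retinoic acid pathway genes around aldh1a2 that were tested, 2 were called higher and 0 lower at 7 dpci in either population (5 higher and 3 lower in surface fish and 4 higher and 0 lower in cavefish without the factor), and the median fold change of the list was -0.17 in surface fish and 0.06 in cavefish, against medians of all genes at 0.08 and 0.04. crabp2b, which binds retinoic acid in the cell, was at 95 ± 67.7 CPM in surface fish at 14 dpci, against 1.46 ± 1.29 CPM uninjured (4.90 ± 0.96, adjusted p = 0.00051, and 6.09 without the factor). rdh10b, which makes the retinaldehyde that Aldh1a2 uses, was at 173 ± 146 CPM in cavefish at 6 hps, against 4.16 ± 1.44 CPM uninjured (5.42 ± 0.70, adjusted p = 2.2e-08), and its copy rdh10a at 73.3 ± 62.2 CPM in surface fish at 1 dpci, against 4.16 ± 0.89 CPM in cavefish (3.86 ± 0.55). In surface fish at 1 dps the retinol carriers went opposite ways, with rbp4 at 19.3 ± 9.23 CPM, against 136 ± 42.1 CPM uninjured, and rbp5 at 78.3 ± 23.9 CPM, against 9.84 ± 0.88 CPM uninjured (-2.99 ± 0.39 and 3.19 ± 0.42). The corepressor ncor1 was lower in cavefish at 3 dpci, with 20.9 ± 6.39 CPM, against 52.9 ± 21.1 CPM at 3 dps. cyp26a1, an enzyme that breaks retinoic acid down, had 0 reads in 77 of 96 libraries, and cyp26c1 of the same family in 83. The third listed enzyme of that family, cyp26b1, had 3 to 225 reads per library, with a median of 33.

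A fixed list of other genes used for epicardium and mesothelium was also read, and which cells held these transcripts was not measured. Of its 23 genes tested at 7 dpci, 5 were called higher and 1 lower in surface fish and 7 higher and 1 lower in cavefish, with list medians of 0.65 and 0.99. Without the factor 11 were higher and 4 lower in surface fish and 12 higher and 2 lower in cavefish. krt18a.1 was at 775 ± 117 CPM in cavefish at 7 dpci, against 217 ± 17.4 CPM uninjured (1.82 ± 0.28), and mdka, a midkine growth factor, at 343 ± 94.7 CPM in surface fish at 14 dpci, against 34.8 ± 4.36 CPM uninjured (3.08 ± 0.39). Sham surgery also went with anxa2a at 498 ± 66.0 CPM and the keratin krt4 at 107 ± 15.7 CPM in surface fish at 1 dps, against 145 ± 26.2 and 15.3 ± 7.08 CPM uninjured (1.94 ± 0.31 and 3.01 ± 0.57), where 8 of 23 were called higher and 1 lower, in a comparison that called 8.85% of genes. mdkb was lower in cavefish at 1 dpci, at 101 ± 6.81 CPM, against 290 ± 38.7 CPM at 1 dps. The mesothelial genes BNC1 and upk3b were at or near 0, with 0 reads in 94 and 95 of 96 libraries.

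Of 21 fibroblast and mural cell genes, the cells that epicardium can give rise to, 7 in surface fish and 6 in cavefish were called higher and 0 lower at 7 dpci, against 9 higher and 1 lower in surface fish and 10 higher and 0 lower in cavefish without the factor. The collagen col5a1 was at 259 ± 74.5 CPM in cavefish at 7 dpci, against 20.5 ± 6.35 CPM uninjured, and col1a2 at 966 ± 446 CPM in surface fish at 14 dpci, against 80.8 ± 40.6 CPM uninjured (3.10 ± 0.47 and 2.78 ± 0.45). Of 21 genes of epithelial to mesenchymal transition, 0 in surface fish and 2 in cavefish were called higher at 7 dpci, against 7 and 9 without the factor, where 2 in surface fish were also lower. In this list the protease gene mmp14a was at 105 ± 18.8 CPM in cavefish at 3 dpci, against 33.2 ± 20.6 CPM at 3 dps, and the transition factor snai1b at 18.8 ± 7.03 CPM in surface fish at 7 dpci, against 6.97 ± 2.16 CPM at 3 dpci, in a comparison that called 4.27% of genes. With 1 replicate number left out, the log2 fold change of mmp14a ran from 0.75 to 1.69, at its lowest under the 2-fold threshold. Among 33 signal genes between epicardium and muscle, tgfb1a was at 158 ± 36.4 CPM in surface fish at 6 hpci, against 53.6 ± 19.8 CPM at 6 hps, and igf2b at 34.4 ± 5.18 CPM in surface fish at 30 dpci, against 185 ± 64.4 CPM at 7 dpci. Among 11 transcription factors related to the members, egr3, a zinc-finger factor whose family shares a DNA site with WT1, was at 57.1 ± 43.6 CPM in cavefish at 6 hpci, against 1.25 ± 1.45 CPM at 6 hps (5.18 ± 0.59), and tbx20 at 87.6 ± 12 CPM in cavefish at 30 dpci, against 36.2 ± 5.81 CPM at 7 dpci. hand2, of the wider epicardial list, was called in the interaction at 30 dpci (-1.49 ± 0.30).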

How the data were processed

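Messenger RNA 3′ ends of 96 single ventricles were sequenced (QuantSeq 3′ FWD). Per the labels and the study's methods, the authors used bcl2fastq 2.20.0, Trim Galore 0.6.4 and STAR 2.7.6a on Mexican tetra 2.0 with a customized Ensembl 103 annotation, and deposited raw counts per gene. Strand and multi-mapping settings of the counting are not given in the sources used here. Counts were tested with edgeR 4.0.16 (R 4.3.3) in a quasi-likelihood model of all 20 groups with TMM scaling and 1 RUVg factor, over 38 contrasts, for the 18763 genes that reached 1 CPM in any library. Alternatives included no factor, 2 factors, DESeq2 1.42.0 and leaving out each replicate. The model was also run on simulated data with 200 changed genes. That run is not used here to judge the factor, which was not independent of the groups. Ventricles came from separate fish. The 5 genes and all lists were chosen with earlier results of these data known. Named were all members, at most 3 called genes per list and kind of contrast by smallest adjusted p, and the 5 genes most like each member. Replicate numbers were treated as labels that do not pair ventricles. Deposited normalized values were not used.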

Additional observations from a re-analysis of the deposited data

Results flagged for a closer look

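In 7 of 90 groups of 5 ventricles with 5 genes, 1 ventricle lay far from the others by Dixon's ratio of its gap to the group's range, above 0.710. Chance flags about 1 in 20 groups. The ratio was 0.747 for tcf21 in 1 cavefish ventricle at 14 dpci (low). For wt1a it was 0.738 in surface fish at 1 dps (low, at 0 reads), 0.767 in surface fish at 3 dps (high), 0.847 in cavefish at 1 dpci (high) and 0.780 in cavefish at 6 hps (high). For aldh1a2 it was 0.845 in surface fish at 3 dps (low) and 0.711 in cavefish at 3 dpci (high).

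The change of aldh1a2 after cryo-injury was smaller in surface fish than in cavefish by the interaction test at 7 dpci (log2 difference -1.97, edgeR adjusted p = 0.023) and at 14 dpci (-1.99, adjusted p = 0.034), and neither was called without the RUVg factor, where the differences were -1.88 and -1.71.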

How the results depend on the processing

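Of the 17 calls of the model with 1 factor, 11 were lost and 9 others gained with a filter of at least 10 counts in at least 5 libraries, 10 lost and 7 gained without the factor, 12 lost and 4 gained with 2 factors, and 0 lost and 0 gained with RLE size factors. Without the factor the calls numbered 6 for cryo-injury against control (2 with it), 3 for sham against uninjured (5), 2 for surface fish against cavefish (7), 0 for interactions (2) and 3 for later against earlier days (1). Single injury contrasts called 0.538% to 12.7% of all genes without the factor (0.432% to 4.55% with it), and sham contrasts 2.13% to 8.22% (1.12% to 8.85%). Population contrasts called 5.4% to 6.96% (5.38% to 7.92%), interactions 0% to 0.581% (0% to 0.986%) and later days 1.82% to 9.12% (1.73% to 4.27%). Such shares are not given here for the other settings, so counts of calls are not read as a result about the members. With 2 factors the sham calls numbered 1, the population calls 2 and the later calls 0. The injury calls with 2 factors or with the count filter were 3 in number and none was a call of the model with 1 factor: aldh1a2 was lower in surface fish at 14 dpci (-1.37 and -1.18) and 30 dpci (-1.29 and -1.19) and in cavefish at 6 hpci (-1.16 and -1.13). With the count filter the sham calls numbered 2 and the later calls 0, in libraries thinned to the lowest total the interaction calls 1, and with only the compared groups in the fit the injury calls 0 and the population calls 3. Leaving out 1 replicate number of every group gave 2 to 4 injury calls, 3 to 6 sham calls, 0 to 7 population calls, 0 to 2 interaction calls, 0 to 3 later calls and 1 to 2 correlations. With the factor regressed out 1 correlation passed, that of tcf21 with tbx18 in cavefish.

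Directions changed for these log2 differences. Without the factor aldh1a2 stood at 0.71 in surface fish at 1 dpci against 1 dps, 0.087 at 14 dpci and 0.53 at 3 dps against uninjured, and at -0.66, -0.50 and -0.82 in surface fish against cavefish at 7, 14 and 30 dpci. With 2 factors aldh1a2 stood at -0.55 in surface fish at 7 dpci, -0.44 in cavefish at 1 dpci, and -0.36, -0.60 and -0.67 between populations at 7, 14 and 30 dpci, and wt1b at -0.26 in cavefish at 7 dpci. With the count filter aldh1a2 stood at -0.10 and -0.42 in surface fish at 3 and 7 dpci, -0.43 in cavefish at 1 dpci, and -0.23, -0.48, -0.79 and -0.92 between populations at 3, 7, 14 and 30 dpci, and wt1b at -0.25 in cavefish at 7 dpci. In thinned libraries aldh1a2 stood at -0.15 in surface fish at 7 dpci and wt1b at 0.33 between populations at 7 dpci. In fits of the compared groups alone aldh1a2 stood at -1.28 in surface fish and -0.036 in cavefish at 7 dpci and at -1.93 between populations at 30 dpci, and wt1b at -2.12 in surface fish at 7 dpci. Their SE were wide, at 0.92, 1.04, 1.60 and 2.22 in that order, and the factor's ranges did not overlap between the groups compared. Leaving out 1 replicate gave aldh1a2 ranges of -0.23 to 0.31 in surface fish at 1 dpci, -0.37 to 1.26 at 7 dpci, -1.38 to 0.019 at 14 dpci and -0.33 to 0.59 at 3 dps, -0.23 to 0.58 in cavefish at 1 dpci, and -0.31 to 0.59, -0.37 to 0.45 and -0.22 to 0.40 between populations at 7, 14 and 30 dpci, and a wt1b range of -0.24 to 1.07 in cavefish at 7 dpci. The factor was estimated anew with the count filter, in thinned libraries and with 1 replicate left out. The cause was not tested.

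Replicate numbers were not treated as pairs. In 0 of 32 pairs of groups did all same-numbered deviations correlate above 0.1 (r from -0.14 to 0.27). Every same-numbered pair had to pass, and other pairs were not compared, so the check cannot exclude weak pairing. With the replicate block the injury, sham, interaction and later calls stayed at 2, 5, 2 and 1 in number, the population calls numbered 6, and aldh1a2 in surface fish at 1 dpci stood at 0.013. The wt1a to wt1b ratio with 1 in place of 0.5 added, chosen after seeing the data, also gave 0 passing comparisons. A median of 11 or 12 reads limits what wt1a and wt1b can show.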
